A study of Mus musculus with 6 samples.

Results

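Toll-like receptor signalling was followed here from the receptors through the adaptors to the kinases, as transcript levels in murine osteoblasts stimulated with C5a. The pathway was taken as 42 listed genes, and 38 of them were measured, each by 1 probeset that names no other gene, among 19938 genes named on the arrays. Tlr5, Irak4, Traf3 and Chuk were not analysed here. In the C5a group, osteoblasts received recombinant murine C5a in proliferation medium for 4 h. In the unstimulated group, cells spent the same 4 h in proliferation medium alone. All cells came from male wild-type (WT) C57BL6/J mice aged 8 to 12 weeks, were used at passage 2 to 3 and had been osteogenically differentiated for 14 days before treatment on day 15. The cells of each of 3 mice, numbered 2, 4 and 5, were split between both groups, which gives 3 arrays per group and 3 pairs. No allele, transgene or further agent distinguishes the groups. Each pool of cells stands for 1 animal and was not described as sorted, so other cells of the preparation may be in it.

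C5a is the peptide released when complement component C5 is cleaved, and C5AR1, a G protein-coupled receptor, is its main receptor. Toll-like receptors (TLRs) recognise microbial lipids and proteins at the cell surface and nucleic acids in endosomes. Ligand binding brings TIR-domain adaptors to the receptor, MYD88 with TIRAP or TRIF (encoded by Ticam1) with TRAM (Ticam2). MYD88 recruits IRAK kinases and the ubiquitin ligase TRAF6, which activate the kinase TAK1 and then the IκB kinases that release NF-κB, whereas TRIF leads through TBK1 and IKKε to the transcription factor IRF3. In bone, TLRs of osteoblasts and of macrophages are known as sensors of infection and tissue damage.

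The levels below are log2 intensities after robust multiarray averaging (RMA), and a log2 fold change is C5a minus unstimulated. The groups were compared with limma with the mouse as a block, over all 35556 probesets, with Benjamini-Hochberg adjustment. The medians of the 6 arrays lay between 5.89 and 5.93. Over all probesets, 4 passed an adjusted p of 0.05, all lower with C5a (0.0112%). At the thresholds of the study's methods (fold change of 1.5 or more, p under 0.05 without adjustment), 608 probesets were higher and 558 lower (3.28% in all). Of the osteoblast markers listed, 7 were measured, and their mean level was 10.2, 10.8 and 8.82 with C5a and 10.2, 11.0 and 8.93 unstimulated in mice 2, 4 and 5. Markers of macrophages were high in mice 2 and 4 and low in mouse 5, with means of 9.56, 9.93 and 6.21 with C5a and 9.94, 10.4 and 6.09 unstimulated. Means of lymphocyte, neutrophil, endothelial and adipocyte markers lay between 5.08 and 6.11 on every array. Whether these samples differ because fewer cells of a type were present or because each cell held less RNA cannot be told apart in bulk RNA.

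Of the 38 members, 0 passed the adjusted threshold with limma over all probesets, and 13 (34.2%) had an unadjusted p under 0.05, against 20.2% of all genes and 16.2% of all probesets. Those with lower values were Tlr3, Tlr4, Ly96, Cd180, Unc93b1, Myd88, Ticam2, Ikbke, Irf3 and Sting1, which is 26.3% of the members against 11.9% of all genes. Those with higher values were Tirap, Ticam1 and Cgas, which is 7.89% of the members against 8.26% of all genes. All 38 members had mean values above the 40th percentile of probesets, while the shares of all genes include genes of any level. The thresholds of the methods were passed by 2 members (5.26%, against 4.43% of all genes), Tirap higher (2.22% of all genes) and Tlr3 lower (2.21%). With no replicate block, 7 members had an unadjusted p under 0.05, against 14% of all genes. Tlr4, Cd180, Unc93b1, Myd88, Ticam2, Ikbke and Sting1 were then not among them, and Tab2 was. Just outside the fold threshold stood Cd180, with a log2 fold change of -0.58. The arrays of the groups did not overlap in 3 members higher with C5a (7.89%, against 8.67% of all genes) and in 3 lower with C5a (7.89%, against 9.95% of all genes). Values moved the same way in all 3 mice in 5 members upward (13.2%, against 19% of all genes) and in 11 downward (28.9%, against 22.9%).

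The number of probesets called depends on which probesets enter the fit. With probesets naming 1 gene only, limma called 795 of 21789 (3.65%), 1.46% higher and 2.19% lower with C5a, and 3 members were among them, Tlr3 and Sting1 lower (adjusted p = 0.0352 and 0.0461) and Ticam1 higher (adjusted p = 0.0461). The fold changes of these members are the same in both fits.

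The median log2 fold change of the members was -0.10, against -0.01 over all genes, and it differed by role. Among the 14 receptors, co-receptors and trafficking factors measured, 13 had values below 0, with a median of -0.35. The 6 adaptors had a median of 0.06, with 4 above 0. The 13 kinases and ubiquitin ligases had a median of 0.01, with 7 above and 6 below 0. The lower values of receptors were those of mice 2 and 4 above all. Their medians in mice 2, 4 and 5 were -0.36, -0.54 and -0.08. The macrophage markers moved with them, with 15 of 16 below 0 and medians of -0.36, -0.46 and 0.17, and their part in the receptors' values was not tested.

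**Figure D1:**
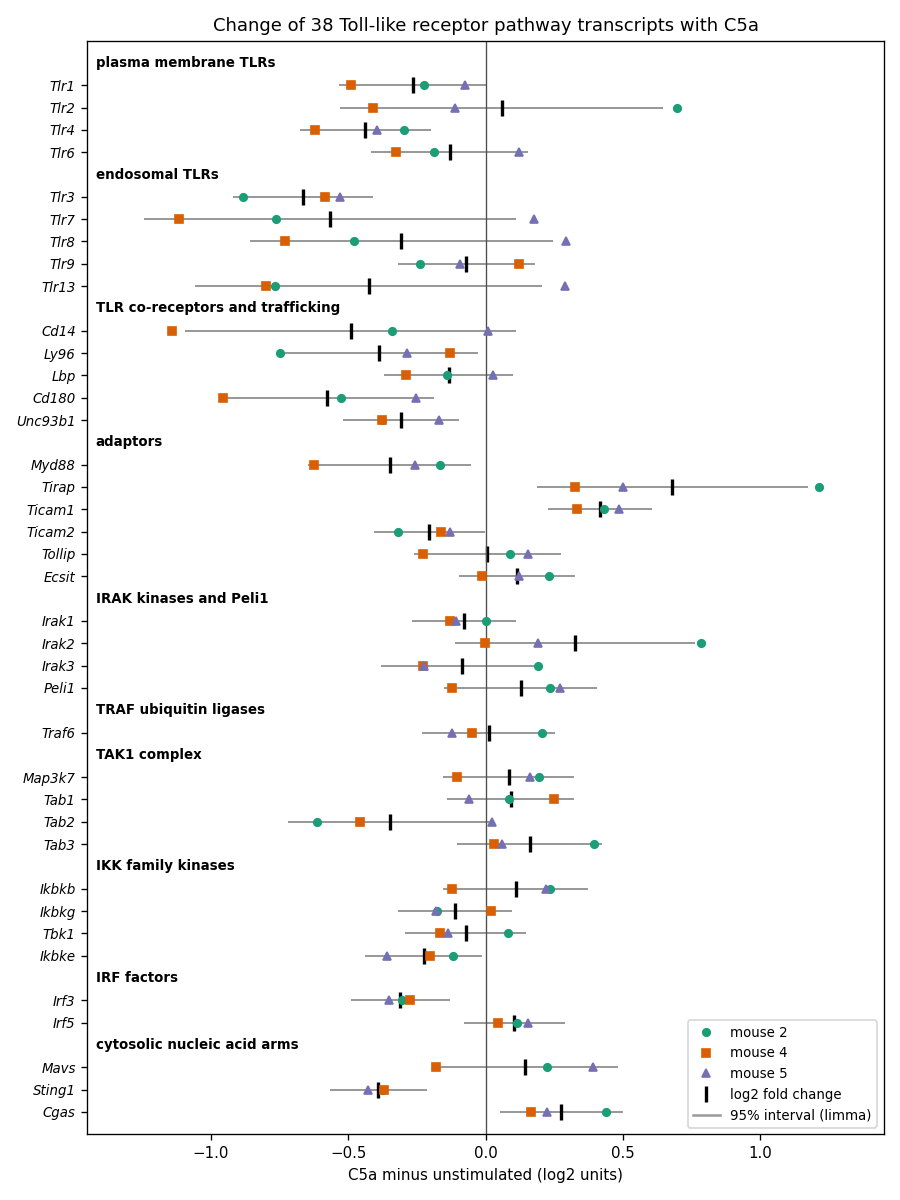
Difference between C5a and unstimulated cultures (log2 units, horizontal axis) of 38 pathway transcripts grouped by role, with points for mice 2, 4 and 5, a black tick for the log2 fold change and a grey line for its 95% interval from limma. Of the receptors and co-receptors 13 of 14 ticks lie left of 0, Tirap and Ticam1 lie right of it in all mice, and Tlr7, Tlr8 and Tlr13 lie right of it in mouse 5 only.

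Tlr3, the endosomal receptor of double-stranded RNA, had the smallest p of all members. It had 7.12, 7.46 and 7.60 in C5a cultures of mice 2, 4 and 5, against 8.00, 8.05 and 8.13 in unstimulated cultures. Every C5a array lay below every unstimulated array, and the lowest value was that of the C5a culture of mouse 2. The means were 7.39 ± 0.25 with C5a and 8.06 ± 0.07 unstimulated (SD, n = 3 each). The difference was -0.67 on the log2 scale (standard error 0.10, 95% interval -0.92 to -0.41, limma adjusted p = 0.100). Without mouse 2 it was -0.56, and Tlr3 then missed the fold threshold of the methods. Tlr3 is the TLR that signals through TRIF alone, whose transcript Ticam1 differed with the opposite sign.

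Ticam1, which encodes TRIF, the adaptor of TLR3 and of internalised TLR4, had 8.62, 8.59 and 8.46 with C5a, against 8.19, 8.26 and 7.98 unstimulated. The groups did not overlap, and the difference was alike in mice 2, 4 and 5 (0.43, 0.33 and 0.48). It differed by 0.42 on the log2 scale (standard error 0.07, 95% interval 0.23 to 0.60, limma adjusted p = 0.112).

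Tirap, the sorting adaptor that brings MYD88 to TLR2 and TLR4 at the membrane, had the highest log2 fold change of the members. It had 8.65, 8.08 and 8.39 with C5a, against 7.44, 7.76 and 7.90 unstimulated. The groups did not overlap, but the size differed between mice, at 1.21 in mouse 2, 0.33 in mouse 4 and 0.50 in mouse 5. The means were 8.38 ± 0.28 with C5a and 7.70 ± 0.23 unstimulated (SD, n = 3 each). The difference was 0.68 on the log2 scale (standard error 0.19, 95% interval 0.19 to 1.17, limma adjusted p = 0.189). Without mouse 2 it was 0.41, and Tirap was then not past the thresholds of the methods.

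Myd88, the adaptor of most TLRs and of the interleukin-1 receptor, had 9.05, 8.54 and 8.62 with C5a, against 9.21, 9.16 and 8.88 unstimulated. Each C5a culture was below its own unstimulated culture, while the groups overlapped through mouse 2. Its log2 fold change was -0.35 (standard error 0.11, limma adjusted p = 0.237), opposite in sign to Tirap. Ticam2 was also lower in all 3 mice, by less (adjusted p = 0.294). Tollip, which restrains IRAK1, and Ecsit, a TRAF6 partner, had log2 fold changes of 0.01 and 0.11 with no common direction among mice.

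Tlr2, the receptor of bacterial lipopeptides that pairs with TLR1 or TLR6, had 10.1, 8.55 and 8.31 with C5a, against 9.44, 8.96 and 8.43 unstimulated. It was higher with C5a in mouse 2 (0.70) and lower in mice 4 and 5 (-0.41 and -0.11), and the groups overlapped. Its log2 fold change was 0.06 (standard error 0.22, limma adjusted p = 0.952), with a 95% interval of -0.53 to 0.64 that includes 0 and reaches past a 1.5-fold increase. Leaving out a mouse moved it between -0.26 and 0.29.

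Tlr4, the receptor of lipopolysaccharide, had 8.10, 7.45 and 7.56 with C5a, against 8.40, 8.07 and 7.95 unstimulated. It was lower in each mouse, while the C5a value of mouse 2 lay above the unstimulated values of mice 4 and 5. Over the 3 mice the log2 fold change was -0.44 (standard error 0.09, limma adjusted p = 0.132). Tlr1 was lower in all mice as well, at -0.26 (adjusted p = 0.315), and Tlr6 in mice 2 and 4 only, at -0.13 (adjusted p = 0.681). Every Tlr6 value lay below the median of its array, as did every Tlr1 value but that of mouse 4 unstimulated. Tlr9, the receptor of unmethylated CpG DNA, had -0.07 (adjusted p = 0.832).

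Ly96 encodes MD-2, the lipid-binding partner of TLR4. It had 9.19, 9.45 and 9.37 with C5a, against 9.94, 9.58 and 9.66 unstimulated. The groups did not overlap, and the largest gap was in mouse 2 (-0.75). The log2 fold change was -0.39 (standard error 0.14, limma adjusted p = 0.272). Unc93b1, which escorts nucleic acid receptors to endosomes, was lower in all mice, at -0.31 (standard error 0.08, adjusted p = 0.172). Lbp, the serum protein that carries lipopolysaccharide to CD14, had -0.13 and differed far more between mice, with means of 12.7, 10.7 and 12.3 in mice 2, 4 and 5.

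**Figure D2:**
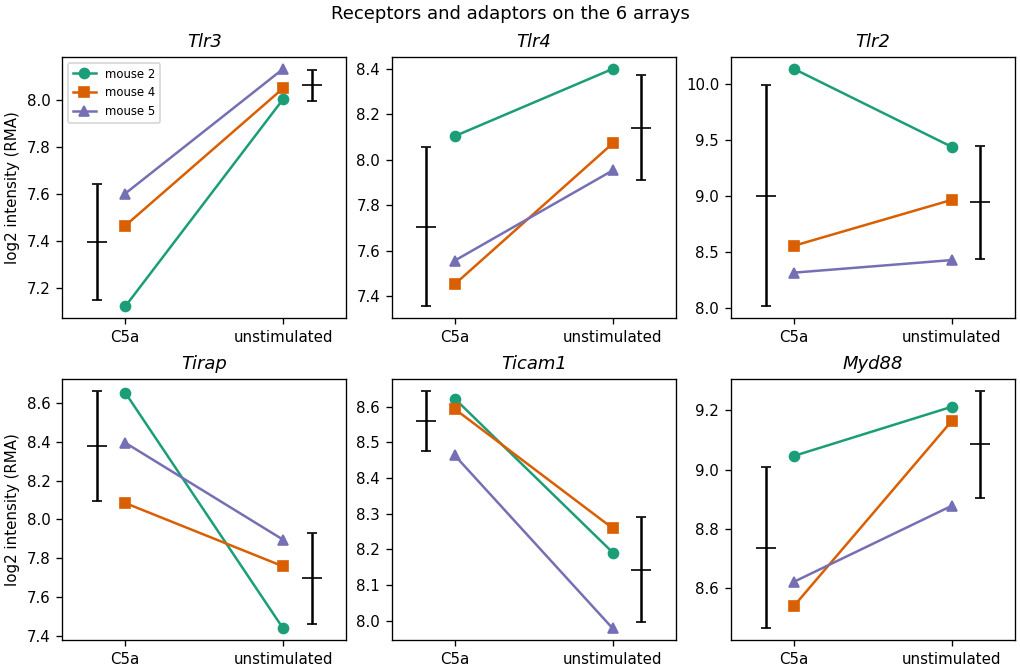
Log2 intensity (vertical axes, which differ between panels) of 3 receptors and 3 adaptors in C5a and unstimulated cultures, with lines joining the cultures of a mouse and bars for the mean and SD of 3 arrays. Tlr3 and Tlr4 are lower and Tirap and Ticam1 higher with C5a in every mouse, and Tlr2 is higher with C5a in mouse 2 only.

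The stretches before annotated transcript starts are shown because members of the same adaptor route differed with opposite signs. Each is the 250 bases upstream of a transcript start in the RefSeq table (GRCm38.p6), on the minus strand of the reference, 5′ to 3′, with matches to searched motifs in capitals. For Tirap the first of its 2 starts in the table was used. The windows of Tlr3 and Tirap lie wholly, and that of Tlr2 for 216 bases, within the gene's annotated span, which reaches further upstream than the start used. Those of Myd88 and Ticam1 lie outside it.
Tlr3 (chr8:45410381-45410630): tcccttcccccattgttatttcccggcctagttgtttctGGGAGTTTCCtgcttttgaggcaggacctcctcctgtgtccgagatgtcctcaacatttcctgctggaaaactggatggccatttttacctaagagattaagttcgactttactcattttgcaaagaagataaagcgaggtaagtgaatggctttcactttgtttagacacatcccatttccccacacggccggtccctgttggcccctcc
Tlr2 (chr3:83841609-83841858): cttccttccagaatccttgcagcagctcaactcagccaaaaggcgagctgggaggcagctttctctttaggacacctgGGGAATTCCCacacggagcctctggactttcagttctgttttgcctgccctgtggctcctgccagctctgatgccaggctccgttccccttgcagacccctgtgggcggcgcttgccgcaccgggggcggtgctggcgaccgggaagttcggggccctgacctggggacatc
Myd88 (chr9:119340019-119340268): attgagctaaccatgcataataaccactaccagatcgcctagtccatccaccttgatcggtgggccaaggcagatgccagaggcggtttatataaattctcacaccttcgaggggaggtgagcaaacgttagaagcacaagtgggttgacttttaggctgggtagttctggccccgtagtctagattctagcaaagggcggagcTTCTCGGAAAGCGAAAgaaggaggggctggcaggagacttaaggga
Tirap (chr9:35199966-35200215): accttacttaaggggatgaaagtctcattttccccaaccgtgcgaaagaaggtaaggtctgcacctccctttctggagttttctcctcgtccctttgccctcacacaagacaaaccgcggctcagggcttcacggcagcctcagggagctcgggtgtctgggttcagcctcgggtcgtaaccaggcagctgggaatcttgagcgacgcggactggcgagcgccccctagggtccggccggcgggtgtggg
Ticam1 (chr17:56276768-56277017): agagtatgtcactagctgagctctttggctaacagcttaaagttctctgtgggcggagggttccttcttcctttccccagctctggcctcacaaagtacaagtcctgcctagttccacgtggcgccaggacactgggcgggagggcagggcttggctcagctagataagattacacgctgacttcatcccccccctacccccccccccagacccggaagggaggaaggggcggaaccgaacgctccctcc
An NF-κB site, searched on both strands as GGGA, any base, TT, any base and CC, matched once in Tlr3, from -211 to -202, and once in Tlr2, from -172 to -163, and it occurs in 0.98% of 32851 promoters of this length. In Myd88 an interferon-stimulated response element (ISRE, GAAA, any 2 bases and GAAA, in 2.98% of promoters) lay from -40 to -31 and overlapped a gamma-activated site (GAS, TTCNNNGAA, in 7.02%) from -46 to -38. An AP-1 site (TGANTCA, in 6.75%) and a PU.1 site (GAGGAAGT, in 2.44%) matched none of these 5 windows, and Tirap and Ticam1 held none of the motifs. Of the 32 members with a promoter in the table, 4 held the NF-κB letters, 4 the GAS, 2 the ISRE, 2 the AP-1 site and 1 the PU.1 site. A match describes letters only.

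Several receptors were low in mouse 5, together with the macrophage markers and some osteoblast markers. The range of the mouse means was larger than the size of the log2 fold change in 26 of 38 members (68.4%), near the 71.4% of all genes. In 7 members (18.4%, against 1.55% of all genes), mouse 5 lay more than 1 log2 unit below the mean of mice 2 and 4, as did 15 of 16 macrophage markers. These members were Cd180 (-3.52), Tlr13 (-3.32), Tlr7 (-2.21), Tlr8 (-1.74), Cd14 (-1.68), Irf5 (-1.33) and Unc93b1 (-1.18), of which 6 are receptors, co-receptors or trafficking factors. Tlr3, Tirap, Ticam1, Ly96 and Sting1 differed between mouse 5 and the mean of mice 2 and 4 by no more than 0.21. For Sting1 the mouse means still ranged over 0.54, with mouse 5 between mice 2 and 4. Of the osteoblast markers measured, Ibsp (-4.84), Phex (-2.34), Dmp1 (-1.83) and Alpl (-1.39) also lay more than 1 log2 unit below in mouse 5. Sp7 (-0.91), Col1a1 (-0.27) and Sparc (-0.11) did not. The part of the macrophage or osteoblast content in the results of the 7 members named above was not tested.

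**Figure D3:**
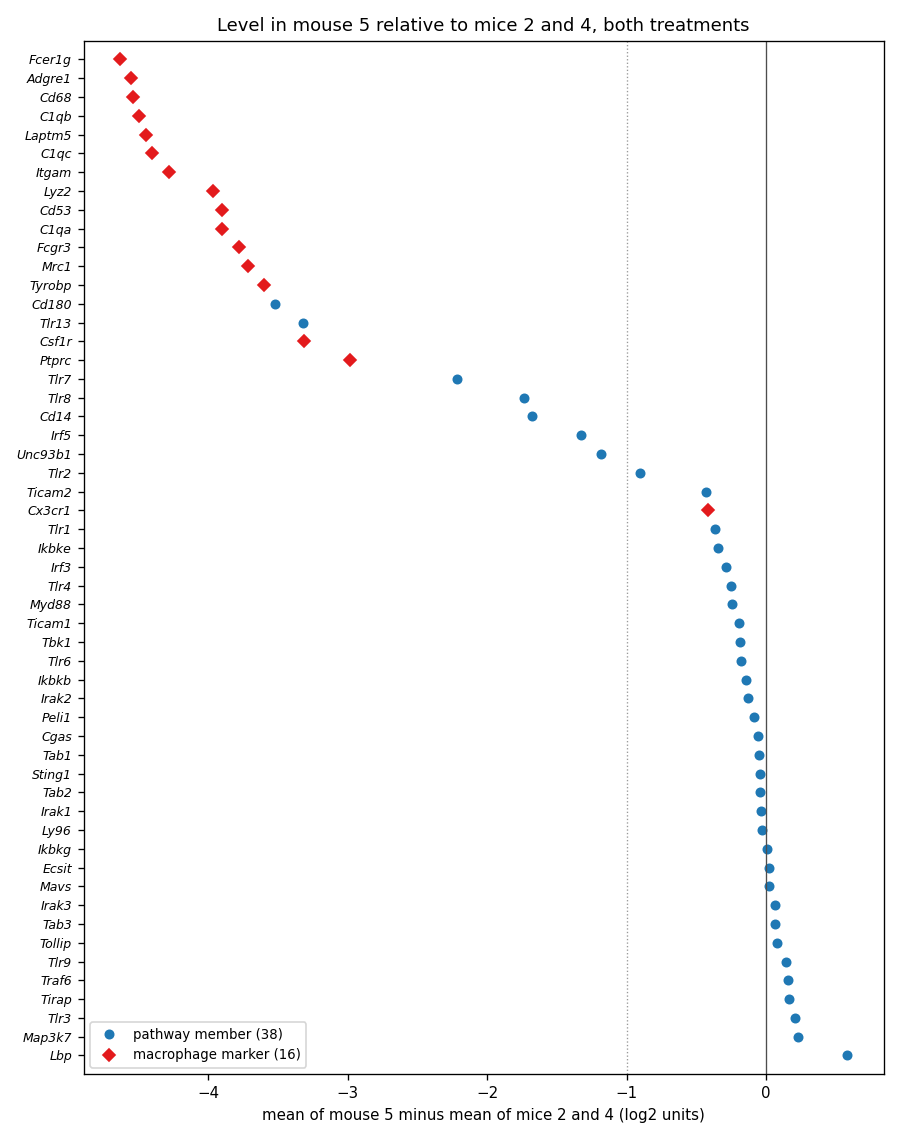
Mean level of mouse 5 minus the mean of mice 2 and 4 over both treatments (log2 units, horizontal axis) for 38 pathway members (blue circles) and 16 macrophage markers (red diamonds), with the dotted line at -1. Cd180, Tlr13, Tlr7, Tlr8, Cd14, Irf5 and Unc93b1 lie left of that line with 15 of the markers, and the other members lie right of it.

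Cd180, a TLR4-like surface protein of B cells and macrophages, had 8.67, 9.20 and 5.66 with C5a, against 9.20, 10.16 and 5.91 unstimulated. It was lower with C5a in every mouse, and the groups overlapped through the spread between mice. In mouse 5 both values lay below the medians of their arrays. The log2 fold change was -0.58 (standard error 0.15, limma adjusted p = 0.171 with the mouse as a block and 0.959 with no block).

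Tlr7, which binds single-stranded RNA, had 5.61, 6.29 and 4.29 with C5a, against 6.37, 7.41 and 4.12 unstimulated. Tlr13, which binds bacterial ribosomal RNA in mice, had 7.54, 8.11 and 5.04 with C5a, against 8.31, 8.91 and 4.76 unstimulated. Both were lower with C5a in mice 2 and 4 and slightly higher in mouse 5, where their level was lowest and below the array medians. Their log2 fold changes were -0.57 and -0.43 (limma adjusted p = 0.394 and 0.505). Tlr8 and the lipopolysaccharide co-receptor Cd14, which are described here after their values were seen, had the same order, with changes of -0.48 and -0.34 in mouse 2, -0.73 and -1.14 in mouse 4, and 0.29 and 0.01 in mouse 5. Without mouse 5, 6 members passed the thresholds of the methods downward in place of 1, against 2.81% of all genes, namely Tlr3, Tlr7, Tlr8, Tlr13, Cd14 and Cd180, with log2 fold changes of -0.73, -0.94, -0.61, -0.78, -0.74 and -0.74. None of them passed the adjusted threshold of limma (lowest adjusted p = 0.240). With all 3 mice, 4 of the 16 macrophage markers were lower at an unadjusted p under 0.05, against 11.9% of all genes.

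**Figure D4:**
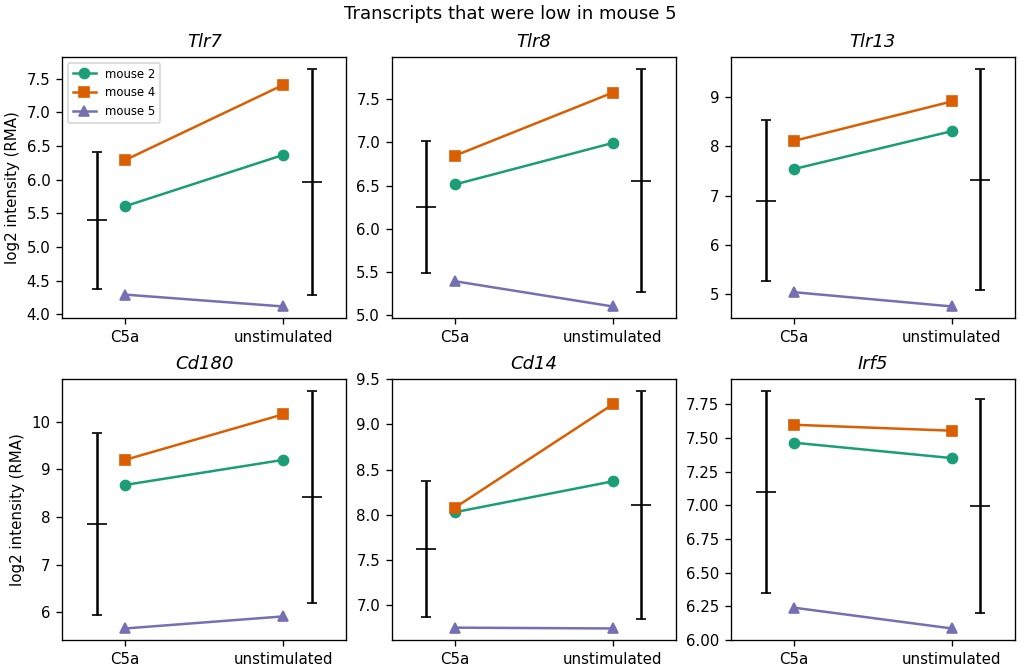
Log2 intensity (vertical axes, which differ between panels) of 6 members that were low in mouse 5, in C5a and unstimulated cultures, with lines joining the cultures of a mouse and bars for the mean and SD of 3 arrays. In all panels mouse 5 lies below mice 2 and 4, and Tlr7, Tlr8 and Tlr13 are lower with C5a in mice 2 and 4 and higher in mouse 5.

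Among the kinases and ubiquitin ligases below the adaptors, log2 fold changes ran between -0.35 and 0.32. Irak2, a kinase that sustains NF-κB signalling, had 8.44, 7.68 and 7.83 with C5a, against 7.65, 7.68 and 7.63 unstimulated. The unstimulated values were alike, and the C5a culture of mouse 2 alone stood well above them. Over the 3 mice the log2 fold change was 0.32 (standard error 0.17, limma adjusted p = 0.454). Irak1 and Peli1, a ubiquitin ligase of the IRAK complex, had -0.08 and 0.13, and Irak3, an IRAK without kinase activity that dampens the pathway, had -0.09. Traf6, the ubiquitin ligase between IRAK and TAK1, had 7.36, 7.15 and 7.32 with C5a, against 7.16, 7.20 and 7.44 unstimulated. Its log2 fold change of 0.01 (95% interval -0.23 to 0.25, limma adjusted p = 0.980) took both signs among mice.

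In the TAK1 complex, the kinase itself, Map3k7, had a log2 fold change of 0.08, and its partners Tab1 and Tab3 had 0.09 and 0.16. Tab2, which binds the ubiquitin chains made by TRAF6, had 9.89, 9.78 and 10.07 with C5a, against 10.51, 10.24 and 10.05 unstimulated. It was lower in mice 2 and 4 (-0.61 and -0.46) and not in mouse 5 (0.02), with a log2 fold change of -0.35 (standard error 0.14, limma adjusted p = 0.332).

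Ikbke, the IκB kinase ε that acts with TBK1 on IRF3, had 7.83, 7.55 and 7.25 with C5a, against 7.95, 7.75 and 7.61 unstimulated. It was lower in each mouse, with overlapping groups, at a log2 fold change of -0.23 (standard error 0.08, limma adjusted p = 0.275). Tbk1, Ikbkb and Ikbkg, the scaffold subunit NEMO, had -0.07, 0.11 and -0.11, each with intervals that include 0.

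Irf3, which drives interferon β transcription, had 7.88, 7.90 and 7.57 with C5a, against 8.18, 8.18 and 7.92 unstimulated. All C5a arrays lay below all unstimulated arrays, and the differences in mice 2, 4 and 5 were close, at -0.30, -0.27 and -0.35. The log2 fold change was -0.31 (standard error 0.07, limma adjusted p = 0.141). Irf5, which acts with MYD88, was slightly higher in each mouse, at 0.10 (adjusted p = 0.586).

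Sting1 encodes the receptor of the cyclic dinucleotide that cGAS makes from cytosolic DNA. It had 8.22, 8.77 and 8.42 with C5a, against 8.59, 9.14 and 8.85 unstimulated. The groups overlapped, but the differences within mice 2, 4 and 5 were nearly equal, at -0.37, -0.37 and -0.43. The log2 fold change was -0.39 (standard error 0.07, limma adjusted p = 0.112). Cgas had 5.52, 5.52 and 5.42 with C5a, against 5.08, 5.35 and 5.19 unstimulated. It was higher in each mouse without overlap of the groups, at 0.28 (standard error 0.08, adjusted p = 0.223). Every Cgas value lay below the median of its array. Mavs, the mitochondrial adaptor of cytosolic RNA sensors, had 0.14 (adjusted p = 0.707).

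Genes around the pathway were taken from lists. Among 8 other innate sensors, 4 were lower and 0 higher at an unadjusted p under 0.05, at which 11.9% of all genes were lower and 8.26% higher. The cytosolic RNA helicases of the RIG-I family were lower in all mice, Rigi (named Ddx58 on the array) at -0.86, Dhx58 at -1.01 and Ifih1 at -0.86 (limma adjusted p = 0.0984, 0.154 and 0.183). Rigi had 8.81, 9.05 and 8.94 with C5a, against 9.88, 9.99 and 9.51 unstimulated, without overlap. Among 11 NF-κB and IRF factors, 3 were higher and 3 lower, beside the same shares of all genes. Nfkbiz, which encodes the NF-κB cofactor IκBζ, had 8.48, 6.66 and 8.14 with C5a, against 9.73, 8.78 and 9.53 unstimulated. It had the largest log2 fold change of the listed genes, -1.58 (standard error 0.19, limma adjusted p = 0.0878). Irf1, an interferon-inducible factor, and Irf8 had -0.64 and -0.33 (adjusted p = 0.0902 and 0.143). With probesets naming 1 gene only, Rigi, Nfkbiz and Irf1 passed the adjusted threshold, at 0.0328, 0.0260 and 0.0283.

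Among 9 kinases of several tiers listed for the MAPK cascades, 3 were higher and 1 lower at an unadjusted p under 0.05 (8.26% and 11.9% of all genes). The p38 activators Map2k3 and Map2k6 differed with opposite signs, both short of the adjusted threshold. Map2k6 had 5.70, 5.68 and 5.92 with C5a, near the array medians, against 7.30, 6.72 and 6.47 unstimulated. Map2k3 had 0.75 (standard error 0.18, limma adjusted p = 0.162) and Map2k6 had -1.07 (standard error 0.21, adjusted p = 0.125), both without overlap of the groups, and the p38β kinase Mapk11 had 0.36 (adjusted p = 0.248). Of 10 inhibitors, 2 were lower and 0 higher, with 11.9% of all genes lower, the deubiquitinase Cyld (-0.24, limma adjusted p = 0.233) and Socs1 (-0.21, adjusted p = 0.269), and the ligase Itch had -0.14 (adjusted p = 0.578). Of 6 chaperones and endosomal factors, Cnpy4 and the protease Lgmn were lower at an unadjusted p under 0.05, against 11.9% of all genes. Their log2 fold changes were -0.26 and -0.28 (limma adjusted p = 0.180 and 0.285), and Cnpy3 had -0.09 (adjusted p = 0.731).

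Of 18 inducible products of TLR signalling, 0 were past an unadjusted p of 0.05 with limma, in either direction, against 20.2% of all genes. This count does not show a lack of change. Their median range of mouse means was 1.21, against 0.168 over all genes. The median size of their log2 fold change was 0.118, against 0.0917. Il1a, Il12b, Ifnb1, Csf3 and Nos2 lay below the array medians on every array. Cxcl10, a chemokine of the interferon response, had 7.29, 6.21 and 5.75 with C5a, against 6.48, 7.28 and 5.78 unstimulated. It was higher in mouse 2 and lower in mouse 4, and its log2 fold change was -0.10 (95% interval -1.04 to 0.84, limma adjusted p = 0.949). Of the others, Cxcl1, Ccl2 and Icam1 had the smallest p, with -0.65, 0.67 and -0.22 (limma adjusted p = 0.329, 0.402 and 0.529). Of the C5a receptors, C5ar2 had -0.12 and C5ar1 0.01 (adjusted p = 0.622 and 0.997). For C5ar1 this averages -0.26, -0.64 and 0.92 in mice 2, 4 and 5. C5ar1 had 8.84, 8.77 and 6.09 with C5a, against 9.11, 9.41 and 5.17 unstimulated. The unstimulated value of mouse 5 lay below its array median, and the C5a value of mouse 5 was close to its own. Its level in mouse 5 minus the mean of the others was -3.40, and macrophage and some osteoblast markers were low there too.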

How the data were processed

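RNA of 6 osteoblast cultures was hybridised to Affymetrix Mouse Gene 1.0 ST arrays. The authors normalized the arrays by RMA in Affymetrix Expression Console and BRB-ArrayTools, and deposited log2 values per probeset; program versions and the genome build are not given in the sources used here. No array-level signal was reprocessed, and 0 columns of samples were left unused.

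Probesets were named by the platform annotation. Of 35556, 21789 name a gene of their own, 1621 name several and 12146 name none, and 21698 matched the RefSeq gene table by Entrez ID. A gene with several probesets is given by the one with the highest mean. All probesets were fitted with limma 3.58.1 in R 4.3.3 (lmFit and eBayes), with mouse as a block. The study's methods name a t-test without saying whether it was paired. As alternatives it was run unpaired, called the methods' t-test below, and paired. The study's fold threshold was read as at least 1.5.

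The number in the sample title is the mouse, and the design splits the cells of each mouse between treatments. Deviations from group means correlated at 0.495 to 0.684 within a mouse and at -0.446 to -0.0353 between mice. With no replicate block, the thresholds of the methods called 523 probesets higher and 400 lower, in place of 608 and 558.

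Members, lists and tests were chosen with earlier results of these data known. Values in every array are given for Tlr2, Tirap, members past the thresholds of the methods and the member with the smallest p of each role, with up to 2 more per role by p, and up to 3 genes of each other list. Lists covered inhibitors, kinases of the MAPK cascades, transcription factors, inducible products, other sensors, chaperones, C5a receptors and markers of 6 cell types. Promoters came from a RefSeq table and are used for their letters only. The fit was tested on simulated arrays of 35556 probesets. They carried the fitted levels of each mouse, with each set change alike in all mice. The noise was normal, with the variances that limma had already drawn towards a common value. Real probesets can vary more unevenly, so the counts below hold for the simulated arrays and do not give the power in these data. At an adjusted p under 0.05 the fit found 32, 49, 50 and 50 of 50 probesets changed 1.5-, 2-, 4- and 8-fold. It also called 13 of 35356 unchanged ones. Alternatives were quantile normalization, centring of arrays on their median, a filter on mean values at the 40th percentile, a fit of probesets that name 1 gene, the fit with no block, both t-tests, a robust fit with a variance trend, each mouse left out, and the probeset with the largest spread.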

Additional observations from a re-analysis of the deposited data

How the results depend on the processing

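The number of arrays limits the precision. Over all probesets, 0 members passed the adjusted threshold with limma or with either t-test. With 3 mice kept, only median centring and quantile normalization could change the members' log2 fold changes, and their directions held under both. The other such settings use the same difference of group means, so the direction could not turn there. Leaving out a mouse turned it for Tlr2 (-0.26 to 0.29), Tlr9 (-0.17 to 0.013), Tollip (-0.069 to 0.12) and Traf6 (-0.086 to 0.076). The median of the members stayed between -0.14 and -0.06 when a mouse was left out. At an adjusted p under 0.05, probesets higher with C5a numbered 0, against 1 with no replicate block, 152 with the filter at the 40th percentile and 318 with probesets naming 1 gene only. Probesets lower with C5a numbered 4, against 0 with either t-test, 221 with that filter, 477 with probesets naming 1 gene only and 0 to 3 with a mouse left out. With probesets naming 1 gene only, 1 member was called higher (Ticam1) and 2 lower (Tlr3 and Sting1), and with the filter 0. At the thresholds of the methods, 608 probesets were higher and 558 lower, against 374 and 291 with the methods' t-test, 226 and 291 with its paired form, and 409 to 1009 higher with a mouse left out. The member called higher there, Tirap, was not called with the paired t-test (0 members) or without mouse 2 (0 to 1 with a mouse left out). The members called lower numbered 1, and 1 to 6 with a mouse left out, the 6 without mouse 5, while without mouse 2 Cd180 was called and Tlr3 was not. With no replicate block the thresholds of the methods called Tirap and Tlr3 as well, but 7 of the 13 members at an unadjusted p under 0.05 were lost and 1 was gained. That count of 13 was 5 with the methods' t-test, 6 with the paired t-test, and 9 to 14 with a mouse left out. The probeset with the largest spread gave the same values, since each member has 1 probeset. The cause of these changes was not tested, beyond that fewer probesets enter the filtered fits and fewer arrays those without a mouse.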
